A study of Mus musculus with 16 samples.

Results

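The BMP, TGF-beta and activin pathway was followed here through 49 genes of the 23420 entries in a table of read counts from mouse thymic epithelial cells. The members were taken by symbol alone: bone morphogenetic proteins (Bmp) and their receptors (Bmpr), growth and differentiation factors (Gdf), the TGF-beta ligands and receptors, inhibin and activin subunits (Inh), activin receptors (Acvr) and Smad proteins. No measured value entered this rule, which was set with earlier results of these data known. Of the 49 members, 45 reached a mean of at least 1 CPM (counts scaled to library size) in a group. Bmp10, Bmp15 and Inhbc peaked at group means of 0.505, 0.614 and 0.582 CPM, and Gdf1 had no count in any library. In the GENCODE M21 annotation all exonic bases of Gdf1 are shared with Cers1 or Upf1, and how the authors' counting treated them is not stated.

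Ligands of this family are secreted as dimers and bring together type I and type II serine/threonine kinase receptors. The type II receptor activates the type I receptor, which phosphorylates receptor-activated Smads. These join Smad4, enter the nucleus and regulate target genes, among which are the inhibitory Smads that limit the pathway. BMP4 is known from mouse studies as a signal made by the mesenchyme around the thymic rudiment, and it maintains Foxn1, the master regulator of thymic epithelium.

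Each of 3 sorted populations came from Psmb11-/- mice (KO) and from Psmb11+/+ mice (WT). Psmb11 encodes beta5t, the thymoproteasome subunit of cortical cells. The populations are cortical thymic epithelial cells (cTEC, CD45-negative, EpCAM-positive, Ly51-positive, UEA1-negative) and medullary cells (Ly51-negative, UEA1-positive) with low or high MHC class II (mTEClo and mTEChi), and the labels give the same strain entry, C57BL/6-derived BAC, for all 6 groups. Each cTEC group had 2 libraries and each mTEClo or mTEChi group had 3. For age, one label reads 6 to 8 weeks and one text mentions 11 thymi, whereas another speaks of 7 days and 14 mice. Nothing states how many animals a library pools or whether libraries of different populations share animals, so p-values measure the spread between libraries.

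Libraries held 64753610 to 146707262 gene counts, so that 3 counts correspond to at most 0.0430 CPM. Psmb11 had 157 and 0 counts in cTEC KO, against 15214 and 12756 counts in cTEC WT. Cortical marker genes summed to 4642 to 5744 CPM in cTEC KO and 6955 to 8314 CPM in cTEC WT, and to at most 2653 CPM in any medullary library. Aire, which defines mature medullary cells, stood at 1251 to 1642 CPM in mTEChi and at no more than 18.5 CPM in mTEClo. Ccl21a, a gene of immature medullary cells, was at 0 in every library, and how the authors' counting treated its reads is not stated. This value was therefore not read as absence of the transcript from mTEClo. The cTEC KO libraries 1 and 2 stood apart from each other (Pearson r of log2 CPM across genes 0.970, against 0.994 to 0.999 within the other groups). The biological coefficient of variation was 0.673 in cTEC, 0.131 in mTEClo and 0.112 in mTEChi, so each test used the libraries of the groups compared and no others.

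The main contrast in the pathway lay between mTEChi and the remaining cells. In mTEChi of both genotypes the transcripts of most receptors and of the inhibitory Smads were low, and those of many ligands were high. Of 48 members tested, 18 had all 6 mTEChi libraries below all 10 others, where 20.7% of all genes did, and 15 had them all above, where 33% of all genes did (53.7% in either direction). The low ones held 9 of 12 receptors and co-receptors and both inhibitory Smads; the high ones were 14 ligands or ligand subunits and 1 receptor. The high ones made up 31.2% of the members tested, no more than among all genes, and the low ones 37.5%. Bmp5, Bmp8b, Gdf2, Inhbc and Inhbe passed the filter on low counts through mTEChi only, so these 5 could only come out high there. All members together took 0.163% to 0.165% of gene counts in mTEChi KO and 0.161% to 0.166% in mTEChi WT, against 0.213% to 0.217% in mTEClo KO, 0.208% to 0.212% in mTEClo WT, 0.233% and 0.239% in the cTEC KO libraries, and 0.256% and 0.259% in cTEC WT ones.

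**Figure D1:**
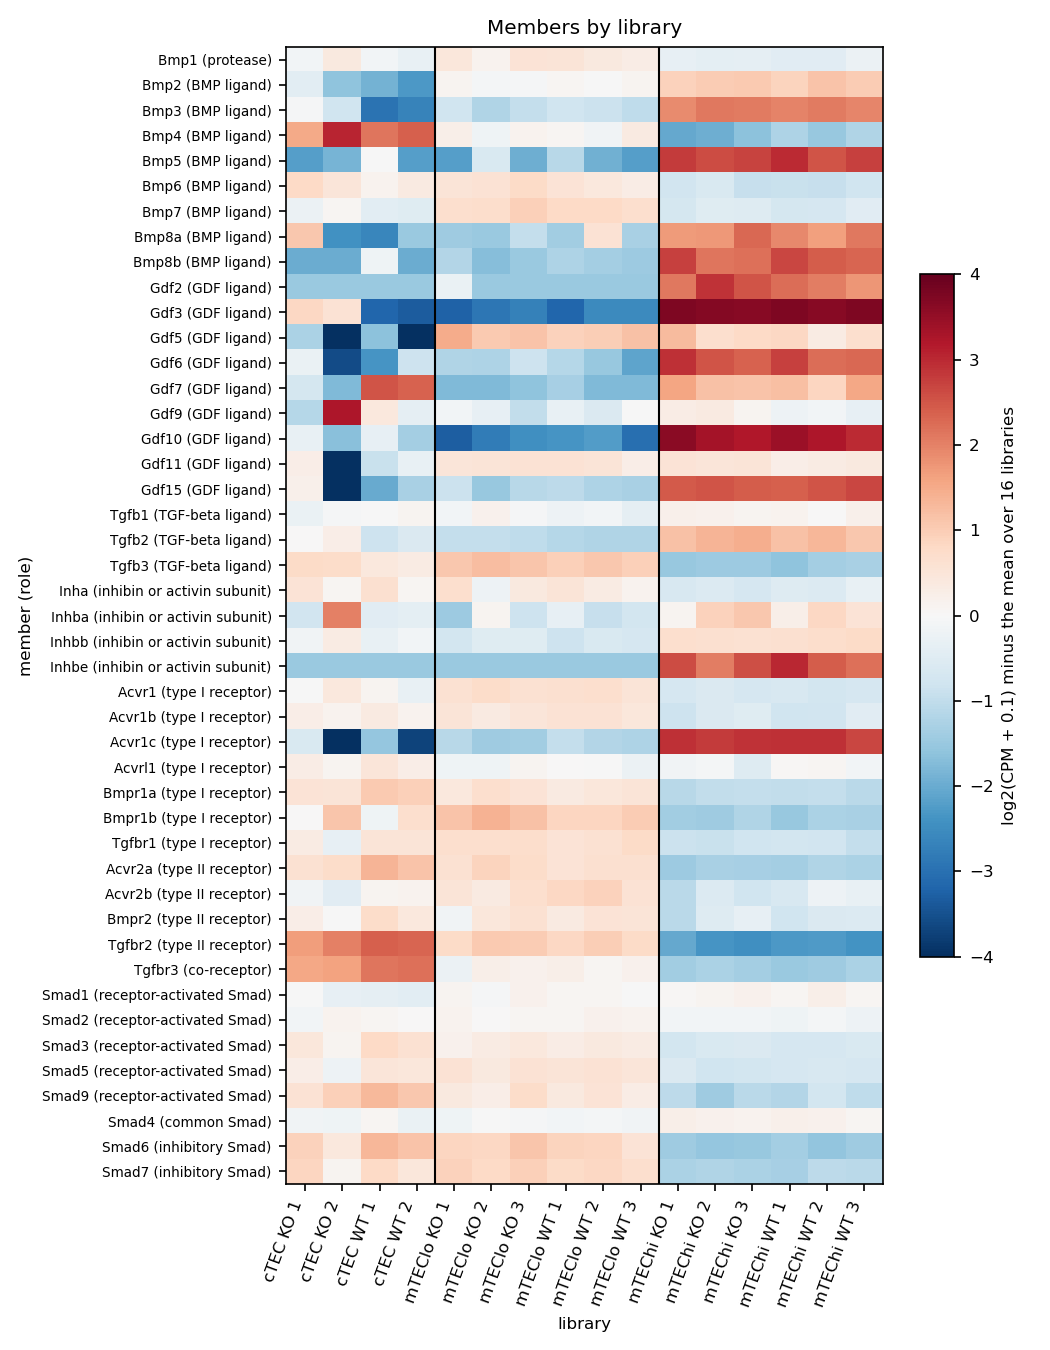
Levels of the 45 members that reached 1 CPM in a group, as log2(CPM + 0.1) minus the member's mean over the 16 libraries (colour, with values beyond the scale in its end colour), with libraries in columns and members in rows by role. The 6 mTEChi libraries share 1 pattern in both genotypes, with the Tgfbr2, Smad6 and Smad7 rows blue and the Gdf3, Gdf10 and Bmp3 rows red.

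mTEChi were first set against mTEClo, the medullary cells low in MHC class II. In mTEChi WT against mTEClo WT, 20 of 47 members tested were higher (43% of all genes) and 22 were lower (37.9% of all genes) by edgeR's quasi-likelihood test with Benjamini-Hochberg adjustment at a threshold of 0.05. Called members made up 89.4% of those tested and called genes 80.9% of all genes tested, and most genes of any kind differed between these cells. Libraries of these groups did not overlap for 20 members higher and 23 lower, where 44.1% and 39.5% of all genes did not (83.7% in either direction). The median log2 fold change was -0.12 over the members and 0.06 over all genes. The same comparison in KO called 20 members higher and 22 lower of 48 (42.2% and 36.2% of all genes, 78.4% in either direction). Without overlap there were 21 members higher and 22 lower in mTEChi KO, against 43.4% and 38.5% of all genes (81.9% in either direction). In both genotypes the same 41 members were called in the same direction, 97.6% of the calls of each. How many of all genes were called alike in both genotypes was not counted. Of the 41, Bmp5, Bmp8b, Bmp15, Gdf2, Gdf7, Gdf10, Inhbc and Inhbe passed the count filter through mTEChi only. Their calls could only agree. Each genotype's comparison used its own libraries.

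Receptors led the lower calls. Tgfbr2, the type II receptor that binds TGF-beta, had 11.1, 11.1 and 10.3 CPM in mTEChi WT, against 96.6, 108 and 93.1 CPM in mTEClo WT. Its log2 fold change was -3.19 (SE 0.08, adjusted p = 1.35e-11 by edgeR). The KO groups stood at 13.0, 10.6 and 9.92 CPM in mTEChi KO and 92.9, 113 and 109 CPM in mTEClo KO, so no mTEChi library came near an mTEClo library. Acvr2a, a type II receptor for activins and some BMPs, had 21.2, 23.3 and 22.4 CPM in mTEChi WT, against 79.0, 84.3 and 83.7 CPM in mTEClo WT (log2 fold change -1.88, SE 0.06). Bmpr1a, the type I receptor through which BMP2 and BMP4 signal, had 99.9, 102 and 94.3 CPM in mTEChi WT, against 252, 272 and 283 CPM in mTEClo WT (log2 fold change -1.44, SE 0.06). The groups did not overlap for any of these 3 receptors. The type I receptors Bmpr1b, Tgfbr1, Acvr1 and Acvr1b fell by 2.30, 1.46, 1.30 and 1.20 on the log2 scale, and the type II receptors Acvr2b and Bmpr2 by 1.20 and 1.11. Tgfbr3, the co-receptor betaglycan that presents TGF-beta2 and binds inhibin, fell by 1.56. In all, 5 of 7 type I receptors, 4 of 4 type II receptors and the co-receptor were lower in mTEChi WT. Acvrl1, the type I receptor known from endothelium, did not pass the test (log2 fold change 0.08, SE 0.13).

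Acvr1c, which encodes the type I receptor ALK7 for Nodal, GDF3 and activins, was the 1 receptor that was higher. It had 12.1, 11.1 and 11.7 CPM in mTEChi KO and 11.9, 12.1 and 10.1 CPM in mTEChi WT. In mTEClo it had 0.646, 0.501 and 0.506 CPM in KO and 0.718, 0.616 and 0.578 CPM in WT. The log2 fold change of mTEChi over mTEClo was 4.42 (SE 0.18) in KO and 4.16 (SE 0.17) in WT. Per gene length its level stayed low, at 1.05 RPKM in mTEChi WT, where Bmpr1a had 14.9 RPKM.

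The Smads split by kind. Inhibitory Smad6, which mainly restrains BMP signals, had 8.88, 7.67 and 8.56 CPM in mTEChi WT, against 42.7, 42.3 and 34.1 CPM in mTEClo WT (log2 fold change -2.24, SE 0.11). Inhibitory Smad7, which restrains TGF-beta and BMP signals, had 16.2, 19.7 and 19.0 CPM in mTEChi WT, against 69.0, 72.6 and 64.2 CPM in mTEClo WT (log2 fold change -1.90, SE 0.08). Both were lower in every mTEChi library than in every mTEClo library. Of the receptor-activated Smads, Smad9, Smad5, Smad3 and Smad2 fell by 1.39, 1.20, 0.99 and 0.28 on the log2 scale. Smad1, which like Smad5 and Smad9 serves BMP receptors, did not pass the test (log2 fold change 0.08, SE 0.06). Smad4, the partner of all receptor-activated Smads, was slightly higher, at 182, 176 and 167 CPM in mTEChi WT against 146, 148 and 142 CPM in mTEClo WT (log2 fold change 0.27, SE 0.06).

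**Figure D2:**
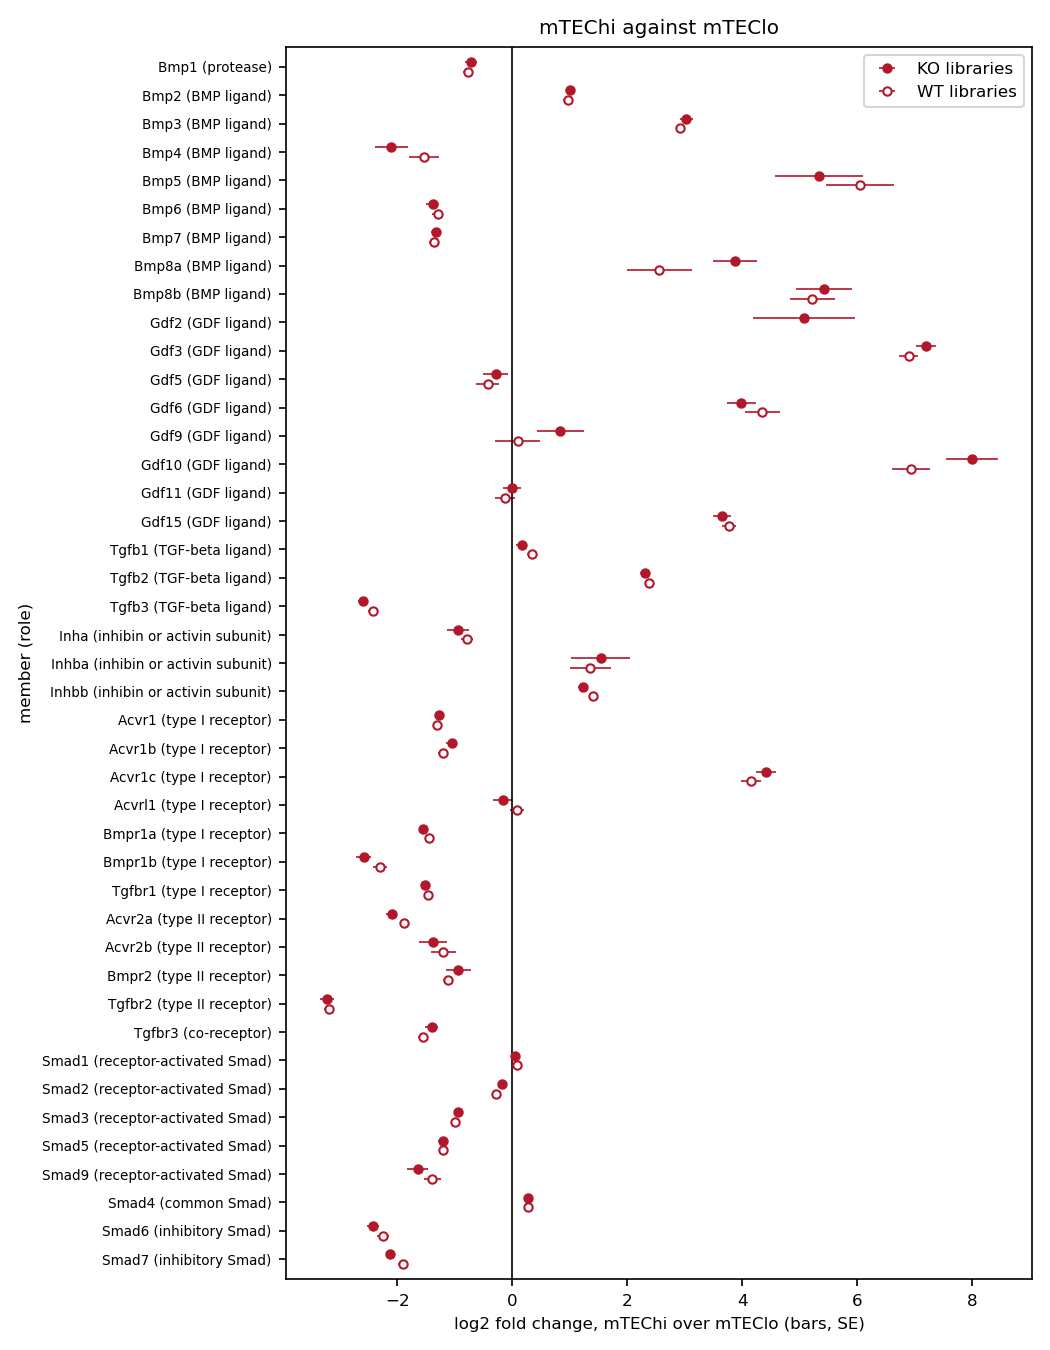
Log2 fold change of mTEChi over mTEClo (x axis, bars give SE) for the 43 members with a fold in at least one genotype that does not rest on a group of 3 counts or fewer, in KO libraries (filled) and WT libraries (open), by role. Receptors and Smads sit left of 0 except Acvr1c, Acvrl1, Smad1 and Smad4, and of the members plotted in both genotypes, Acvrl1 alone has its points on opposite sides of 0. Gdf2 has a KO point only.

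Ligands went in both directions. Gdf3, a relative of Nodal, had 31.0, 29.4 and 29.1 CPM in mTEChi KO and 31.1, 28.8 and 30.6 CPM in mTEChi WT. In mTEClo it had 0.148, 0.210 and 0.258 CPM in KO and 0.160, 0.297 and 0.294 CPM in WT. The log2 fold change was 7.20 (SE 0.18) in KO and 6.90 (SE 0.17) in WT, and every mTEChi library was far above every mTEClo library. Bmp3, a BMP that opposes other BMPs, had 74.5, 79.0 and 71.9 CPM in mTEChi WT, against 10.5, 10.1 and 9.18 CPM in mTEClo WT (log2 fold change 2.92, SE 0.08). Tgfb2, which encodes the TGF-beta ligand that depends most on betaglycan, had 69.0, 76.5 and 64.9 CPM in mTEChi WT, against 13.9, 13.1 and 13.3 CPM in mTEClo WT (log2 fold change 2.39, SE 0.08). For these 2 genes, as for Gdf3, the groups were fully apart. Gdf15, a stress-induced and distant member of the family that signals through a receptor of another family, rose by 3.77 on the log2 scale, the activin B subunit Inhbb by 1.41 and Bmp2 by 0.97.

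Further ligands were high in mTEChi at low absolute levels. Gdf10, Gdf6 and Bmp8b averaged 9.09, 6.37 and 2.09 CPM in mTEChi WT, with log2 fold changes over mTEClo WT of 6.94, 4.35 and 5.22. Bmp5 ranged over 2.52 to 3.53 CPM in mTEChi WT (log2 fold change 6.05). Inhbe, Gdf2 and Inhbc had no count in mTEClo WT and were at least 144-fold, 96.2-fold and 48.2-fold higher in mTEChi WT, taking 3 counts over the mTEClo WT group as their upper limit. Bmp8a and Bmp8b are related genes, and how the authors' counting treated reads that match both is not stated. In a library kit that does not mark strand, 49.1% of the exonic bases of Bmp5 overlap a gene on the other strand. Gdf2 and Gdf10 lie 5757 bases apart on chromosome 14 (mm10), and Inhbc and Inhbe lie 4554 bases apart on chromosome 10. Both members of each of these pairs were higher in mTEChi.

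Tgfb3 was the counterpart to Tgfb2. It had 22.4, 23.3 and 23.2 CPM in mTEChi KO, against 136, 150 and 137 CPM in mTEClo KO, and 20.7, 24.6 and 25.9 CPM in mTEChi WT, against 124, 134 and 124 CPM in mTEClo WT. The log2 fold change was -2.60 (SE 0.07) in KO and -2.42 (SE 0.08) in WT. Bmp7, Bmp6 and Bmp4 fell by 1.36, 1.30 and 1.53 in WT, and Inha, the subunit particular to inhibin, by 0.78. By role, 6 of 9 BMP ligands tested were higher and 3 lower in WT, 6 of 9 GDF ligands were higher and none lower, and 4 of 5 inhibin or activin subunits were higher and 1 lower. Bmp5, Bmp8b, Bmp15, Gdf2, Gdf7, Gdf10, Inhbc and Inhbe passed the count filter through mTEChi only, so in these tallies they could only come out higher. Tgfb1 was higher by 0.35 (SE 0.08) in WT and by 0.17 (SE 0.09, adjusted p = 0.123 by edgeR) in KO, where it did not pass.

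The remaining receptors and Smads were lower in mTEChi or differed less between populations. Tgfbr1, the type I partner of Tgfbr2, averaged 66.7 ± 2.2 CPM in mTEChi KO and 68.3 ± 5.1 CPM in mTEChi WT, against 193 ± 3.8 CPM in mTEClo KO and 188 ± 16 CPM in mTEClo WT (SD, n = 3 each). Smad5 averaged 69.3 and 70.8 CPM in mTEChi KO and WT, against 161 and 163 CPM in mTEClo KO and WT, and Smad3, which serves TGF-beta and activin receptors, 45.8 and 45.3 CPM, against 88.7 and 90.4 CPM. Smad1 lay within 139 to 197 CPM over all 6 group means, Smad2 within 69.6 to 84.6 CPM and Tgfb1 within 23.8 to 31.3 CPM. Some differences within these ranges were still called. Smad1 was lower in cTEC WT than in mTEClo WT and mTEChi WT, and Smad2 was lower and Tgfb1 higher in mTEChi WT than in mTEClo WT. Acvr2b and Acvrl1 were low throughout, with group means of 1.27 to 3.97 CPM and 6.60 to 10.2 CPM. Inhba, the activin A subunit, stayed at or below a mean of 1.86 CPM, that of cTEC KO, whose libraries had 0.402 and 3.31 CPM.

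In these bulk libraries fewer cells of a type and less RNA per cell cannot be told apart. Fibroblast and pericyte markers summed to 590 to 593 CPM in mTEChi KO and 579 to 614 CPM in mTEChi WT, against 1383 to 1453 CPM in mTEClo KO and 1158 to 1395 CPM in mTEClo WT, with 4 of 12 higher and 7 of 12 lower in either genotype. Tuft cell markers summed to 402 to 481 CPM in mTEChi KO and 446 to 609 CPM in mTEChi WT, against 1832 to 2471 CPM in mTEClo KO and 2673 to 2854 CPM in mTEClo WT, with 10 of 10 lower. Dendritic cell and macrophage markers summed to 541 to 570 CPM over all mTEChi libraries and 48.2 to 79.2 CPM over all mTEClo libraries, with 11 of 11 higher, and B cell markers to 44.1 to 46.9 CPM and 10.4 to 16.8 CPM. Thymocyte markers had 4 of 12 higher in KO and 7 of 12 higher in WT, and endothelial markers 2 higher and 1 lower of 8 in KO and 2 lower of 8 in WT. No gene of the first 4 lists was at 0 in a whole mTEChi or mTEClo group. The part of these cell types in the member results was not tested.

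The promoters of 4 members are shown because the contrast is carried by genes of these kinds: 2 receptors and an inhibitory Smad that were lower in mTEChi, and a TGF-beta ligand that was higher. Each runs 5′ to 3′ on the gene's strand, from 250 bases before to 50 bases after the start in RefSeq (GRCm38.p6), with motif matches in capitals. All 4 genes lie on the minus strand: Tgfbr2 at chr9:116175314-116175613, Bmpr1a at chr14:34502497-34502796, Smad6 at chr9:64022010-64022309 and Tgfb2 at chr1:186705940-186706239.
Tgfbr2: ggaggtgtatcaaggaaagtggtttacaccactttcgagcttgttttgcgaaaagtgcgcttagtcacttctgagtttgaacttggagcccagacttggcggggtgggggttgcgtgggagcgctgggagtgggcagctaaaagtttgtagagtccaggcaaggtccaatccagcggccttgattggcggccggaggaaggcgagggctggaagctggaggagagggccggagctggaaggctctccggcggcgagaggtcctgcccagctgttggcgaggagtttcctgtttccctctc
Bmpr1a: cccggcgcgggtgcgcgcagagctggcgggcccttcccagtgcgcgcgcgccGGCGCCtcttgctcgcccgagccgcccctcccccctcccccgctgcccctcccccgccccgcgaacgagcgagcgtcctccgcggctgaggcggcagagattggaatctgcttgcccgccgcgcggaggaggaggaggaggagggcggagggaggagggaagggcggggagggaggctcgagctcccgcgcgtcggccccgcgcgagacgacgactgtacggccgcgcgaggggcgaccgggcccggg
Smad6: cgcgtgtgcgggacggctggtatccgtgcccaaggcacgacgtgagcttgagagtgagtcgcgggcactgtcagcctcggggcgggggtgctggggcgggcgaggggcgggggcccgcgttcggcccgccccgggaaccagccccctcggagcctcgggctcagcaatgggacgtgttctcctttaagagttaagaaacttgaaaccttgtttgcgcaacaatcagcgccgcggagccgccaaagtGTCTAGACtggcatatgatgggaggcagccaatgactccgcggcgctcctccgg
Tgfb2: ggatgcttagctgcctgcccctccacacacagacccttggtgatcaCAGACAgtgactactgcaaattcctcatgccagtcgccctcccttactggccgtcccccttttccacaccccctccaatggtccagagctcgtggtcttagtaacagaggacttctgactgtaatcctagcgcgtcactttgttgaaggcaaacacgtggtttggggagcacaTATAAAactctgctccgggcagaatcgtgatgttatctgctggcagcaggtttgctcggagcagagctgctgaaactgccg

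Motifs were searched on both strands. GGCGCC, the core of a BMP response element, was found in Bmpr1a; GTCTAGAC, a pair of Smad boxes, in Smad6; and CAGACA, a Smad-binding element of TGF-beta target genes, in Tgfb2. The core promoter element TATAAA was also found in Tgfb2. GTCTAGAC and CAGACA both contain the short Smad box AGAC. None of these motifs, nor TGAGTCA, the AP-1 site, was in the Tgfbr2 window. Of the 49 members, 35 had a promoter in the table, with 43 promoters in all. Counted per promoter, GGCGCC was in 9 of the 43 (20.9%; 11.9% of all 32851 promoters of the same length), GTCTAGAC in 1 (2.33%; 0.213% of all), CAGACA in 6 (14%; 21% of all), TATAAA in 6 (14%; 13.6% of all) and TGAGTCA in 0 (5.2% of all). The ratio of observed to expected CpG was averaged over the promoters of each member. Its median was 0.458 over the 15 members with a promoter that were higher in mTEChi WT and 0.757 over the 16 lower there. By role, the median per member was 0.442 for ligands, 0.79 for receptors and 0.952 for Smads. Over all 32851 promoters, each counted singly and not averaged per gene, the median was 0.384.

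cTEC were set against the medullary populations next, to place the pathway's levels in the cortex. Per gene length, the members with the highest levels in cTEC WT were Bmpr1a with 53.7 RPKM, Tgfbr2 with 43.7 RPKM, Tgfbr3 with 42.3 RPKM, Smad1 with 34.1 RPKM and Smad4 with 33.4 RPKM. In mTEClo WT the order was Smad1 with 45.3 RPKM, Bmp7 with 42.2 RPKM, Bmpr1a with 36.3 RPKM and Smad4 with 32.2 RPKM. In mTEChi WT it was Smad1 with 53.5 RPKM, Smad4 with 43.3 RPKM, Gdf15 with 29.3 RPKM, Bmp3 with 20.1 RPKM and Bmp7 with 18.3 RPKM. Receptors thus headed the cTEC order, and ligands stood among the top members in the medullary cells.

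In cTEC WT against mTEClo WT, 14 of 43 members were higher (20.9% of all genes) and 9 lower (24.1% of all genes; 44.9% in either direction). Libraries did not overlap for 14 members higher and 18 lower, against 25.9% and 39% of all genes (64.9% in either direction). Tgfbr3 had 335 and 351 CPM in cTEC WT, against 88.8, 79.9 and 86.0 CPM in mTEClo WT (log2 fold change 2.09, SE 0.08, adjusted p = 7.99e-07 by edgeR). Tgfbr2 had 289 and 272 CPM in cTEC WT (log2 fold change 1.57, SE 0.08). Bmp4 had 9.93 and 11.8 CPM in cTEC WT, against 2.30, 1.99 and 2.81 CPM in mTEClo WT (log2 fold change 2.27, SE 0.22). All cTEC WT libraries were above all mTEClo WT libraries for these 3 genes. Also higher were Acvr2a, Bmpr1a and Acvrl1 by 0.71, 0.62 and 0.53 on the log2 scale, Smad9, Smad6 and Smad3 by 0.86, 0.53 and 0.42, and Inhbb and Tgfb2 by 0.59 and 0.57. Gdf7 had 1.82 and 1.65 CPM in cTEC WT and 3 counts in all over mTEClo WT, a ratio of 158 with a 95% counting interval of 53.6 to 771.

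Ligands were called in both directions here. Of 8 BMP ligands tested, 3 were lower and 1 higher in cTEC WT, and of 8 GDF ligands 2 were lower and 2 higher. Of 3 TGF-beta ligands 1 was lower and 2 higher, and of 3 inhibin or activin subunits 0 were lower and 1 higher. Gdf7 and Gdf10 passed the count filter through cTEC WT only, so in these tallies they could only come out higher. Bmp8a and Gdf5 passed it through mTEClo WT only and could only come out lower. Bmp2 had 6.01 and 4.57 CPM in cTEC WT, against 24.0, 22.5 and 24.3 CPM in mTEClo WT (log2 fold change -2.09, SE 0.15). Bmp3 had 2.29 and 2.85 CPM in cTEC WT (log2 fold change -1.87, SE 0.19). Bmp7, which shares receptors with BMP2 and BMP4, had 48.0 and 46.4 CPM in cTEC WT, against 113, 112 and 104 CPM in mTEClo WT (log2 fold change -1.14, SE 0.07). No cTEC WT library reached an mTEClo WT library in these 3 genes. Tgfb3 and the procollagen and chordin protease gene Bmp1 fell by 0.55 and 0.53, the type I receptor Acvr1 by 0.64 and Smad1 by 0.35. The calls for Acvrl1, Gdf5 (log2 fold change -3.83) and Gdf11 (-0.98) were each lost without mTEClo WT 1, 2 or 3, with adjusted p from 0.0568 to 0.113 by edgeR. With limma-voom and a variance for each population, Tgfb2, Bmp1, Smad1, Acvrl1 and Gdf11 did not pass (adjusted p of 0.116, 0.0934, 0.104, 0.212 and 0.348), and with DESeq2 Gdf5 did not (0.0795).

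Against mTEChi WT, cTEC WT had 20 of 48 members higher (30.8% of all genes) and 20 lower (43.5% of all genes; 74.3% in either direction). All libraries lay apart for 22 members higher and 19 lower, against 35.4% and 49.4% of all genes (84.8% in either direction). The median log2 fold change was 0.16 over the members and -0.24 over all genes. Tgfbr2, Tgfbr3, Smad6, Acvr2a and Bmpr1a were higher by 4.69, 3.58, 2.70, 2.53 and 1.99 on the log2 scale, and Bmp4 by 3.73. Gdf3, Bmp3, Gdf15, Bmp2 and Tgfb2 were lower, with log2 fold changes of -7.70, -4.86, -4.20, -3.12 and -1.88. Inhbe and Gdf2 had no count in cTEC WT and were at least 95.4-fold and 63.7-fold lower there. By role, 5 of 7 type I receptors, 3 of 4 type II receptors, the co-receptor, 4 of 5 receptor-activated Smads and both inhibitory Smads were higher in cTEC WT, while 6 of 10 BMP ligands, 7 of 9 GDF ligands and 4 of 5 inhibin or activin subunits were lower. Bmp5, Bmp8a, Bmp8b, Bmp10, Bmp15, Gdf2, Gdf5, Inhbc, Inhbe and Acvr1c passed the filter on low counts through mTEChi only, so they could only come out lower here. The fibroblast and pericyte markers, which include known sources of BMP4, summed to 1097 to 1418 CPM in cTEC WT, 1158 to 1395 CPM in mTEClo WT and 579 to 614 CPM in mTEChi WT, with 7 of 12 higher and 2 lower in cTEC WT than in mTEClo WT. Tuft cell markers were lower in cTEC WT than in mTEClo WT for 10 of 10, and thymocyte markers higher for 6 of 12. The part of these cell types in the cTEC values, Bmp4 included, was not tested.

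Among KO libraries, cTEC against mTEClo called 5 members higher and 1 lower of 40 (3.32% and 2.87% of all genes; 6.19% in either direction). Without overlap, 7 members were above and 11 below, against 16.6% and 32.6% of all genes (49.2% in either direction). Tgfbr3, Tgfb2, Gdf3, Tgfbr2 and Bmp4 were higher, with log2 fold changes of 1.60, 1.21, 4.25, 1.01 and 2.56, and Bmp7 was lower (-0.75). Of these, 5 were called the same way in WT, which is 83.3% of the KO calls and 21.7% of the WT calls; Gdf3 was called in KO and not in WT. The count rested on the libraries used: it was 20 without cTEC KO 1 (48.8%, against 55.5% of all genes) and 14 without cTEC KO 2 (34.1%, against 23.3% of all genes). It was 1, 1 and 0 without mTEClo KO 1, 2 and 3, where at most 0.672% of all genes were called. Against mTEChi, cTEC KO had 19 of 48 members higher (20.7% of all genes) and 14 lower (26%; 46.7% in either direction). Among the lower, Bmp5, Bmp8b, Bmp10, Bmp15, Gdf2, Inhbc and Inhbe passed the count filter through mTEChi KO only. These genes could only come out lower. Here 23 members lay above and 23 below without overlap, against 29.2% and 46.1% of all genes (75.3% in either direction). Tgfbr3, Tgfb3, Tgfbr2, Acvr2a, Bmpr1a and Smad6 were higher by 2.91, 2.22, 4.14, 2.04, 1.53 and 2.21, and Gdf3, Bmp3 and Tgfb2 were lower, with log2 fold changes of -3.02, -2.41 and -1.19. The 2 genotypes shared 29 calls in the same direction, 87.9% of those in KO and 72.5% of those in WT. For neither of these comparisons were shared calls counted over all genes.

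**Figure D3:**
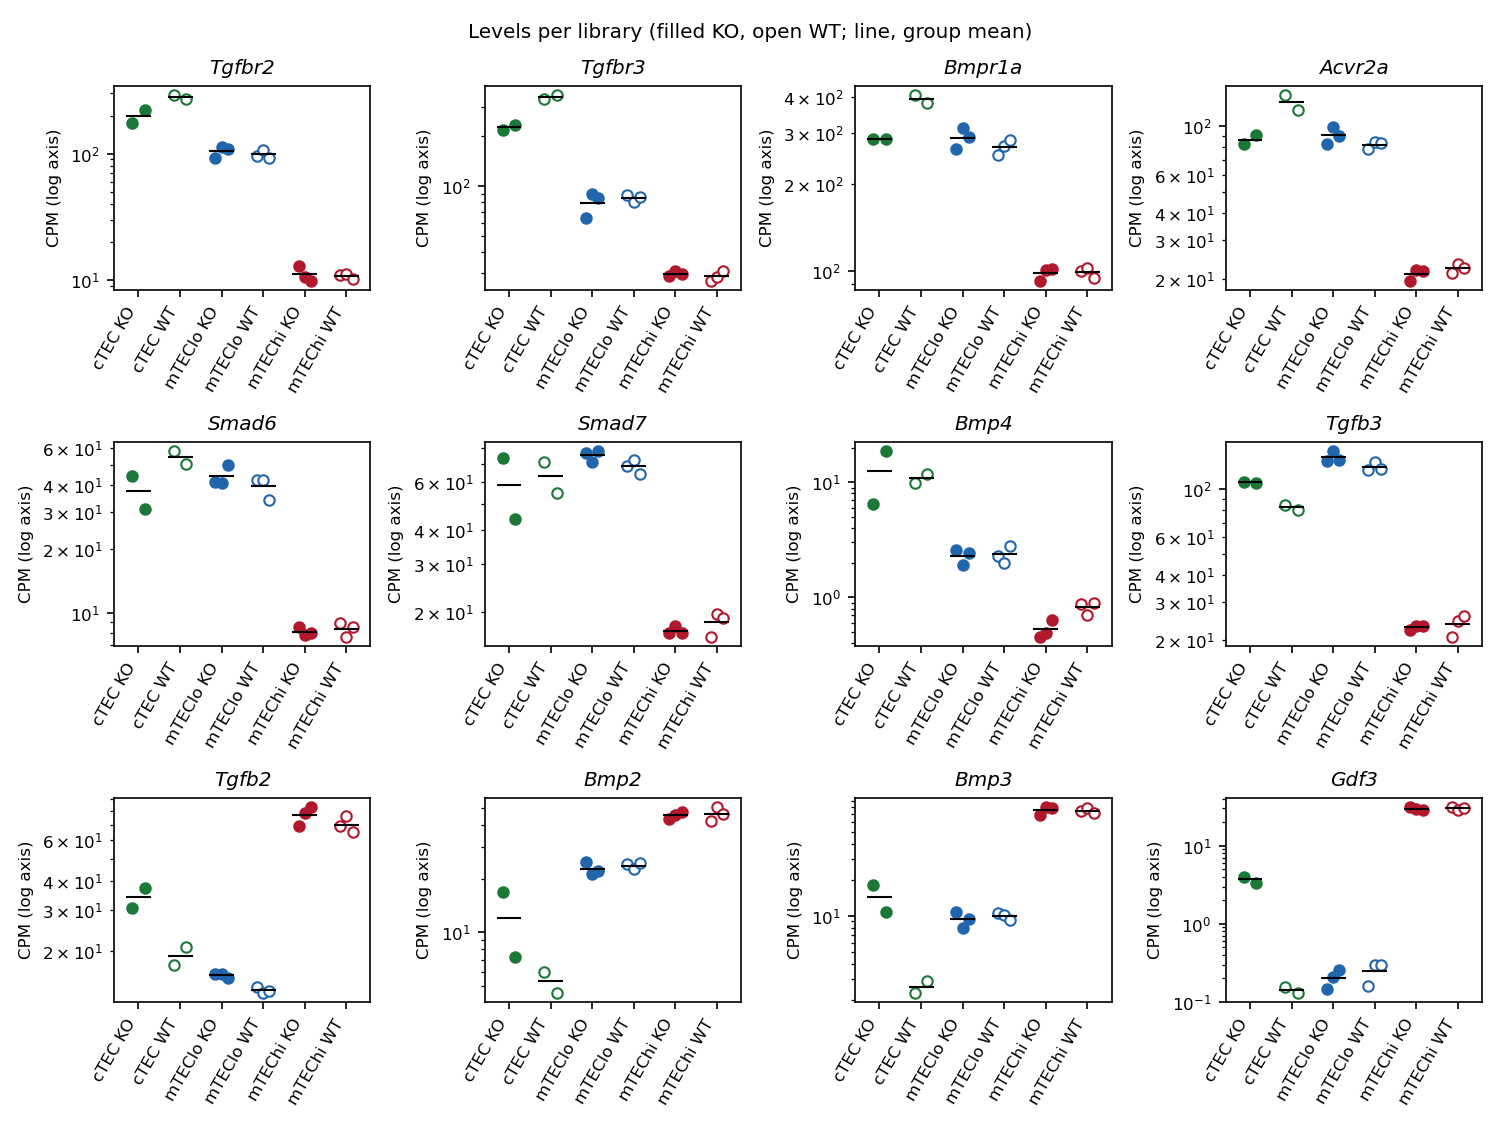
CPM (log axis, which differs between panels) of 12 members in each library, by group, with KO filled, WT open and a line at the group mean. Receptors and inhibitory Smads drop in the mTEChi groups, and Tgfb2, Bmp2, Bmp3 and Gdf3 peak there. The cTEC KO and cTEC WT points overlap for Bmp4 and Smad7 and lie clear of each other for the other members shown. Of all genes tested, 45.2% had no overlap between these groups.

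The genotype comparison asked what loss of Psmb11 did to the pathway in each population. In cTEC KO against cTEC WT, 0 of 40 members tested passed the threshold by edgeR, as did 0% of all genes, Psmb11 included. At an unadjusted p under 0.05 there were 11 members and 12.8% of all genes. DESeq2 called 4 members (Bmp3, Gdf3, Tgfbr3 and Bmpr1a), 10% of those tested, against 5.03% of all genes, and limma-voom with a variance for each population called 0. Both cTEC KO libraries lay above both WT libraries for 9 members and below them for 13, where 21% and 24.2% of all genes did so (45.2% in either direction).

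Bmp3 had the smallest p. It stood at 17.9 and 10.7 CPM in cTEC KO, against 2.29 and 2.85 CPM in cTEC WT (log2 fold change 2.48, SE 0.48, adjusted p = 0.12 by edgeR). Tgfbr3 had 219 and 233 CPM in cTEC KO, against 335 and 351 CPM in cTEC WT (log2 fold change -0.59, SE 0.14, adjusted p = 0.177 by edgeR). Bmpr1a had 285 and 285 CPM in cTEC KO, against 405 and 381 CPM in cTEC WT (log2 fold change -0.44, SE 0.12, adjusted p = 0.228 by edgeR). The KO and WT libraries did not overlap for these 3 genes. Gdf3 had 4.01 and 3.38 CPM in cTEC KO, against 0.157 and 0.131 CPM in cTEC WT (log2 fold change 4.69, SE 1.32, adjusted p = 0.237 by edgeR); this gene was chosen after its values were seen. The count of called members was 15 without cTEC KO 1 (34.9% of those tested, against 20.9% of all genes) and 6 without cTEC KO 2 (13.6%, against 6.14% of all genes), when the lone KO library is assumed to vary like the WT pair. Bmp3 and Tgfbr3 passed in either case, with adjusted p of 0.0155 and 0.0387 without cTEC KO 1 and of 0.00429 and 0.0254 without cTEC KO 2, by edgeR.

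Several low members varied widely between the cTEC KO libraries. Gdf9 had 0.201 and 6.21 CPM, Gdf15 7.54 and 0.14 CPM, and Gdf11 3.49 and 0.0281 CPM in cTEC KO 1 and 2, against 0.783 and 0.414, 1.56 and 2.59, and 1.52 and 2.38 CPM in cTEC WT. For such genes the fitted fold has an SE of 1.54 to 1.84. Bmp4, at 6.41 and 18.6 CPM in cTEC KO against 9.93 and 11.8 CPM in cTEC WT, also overlapped between genotypes (log2 fold change 0.24, SE 0.54). Gdf7, a BMP-class ligand, was below WT in both KO libraries, with 8 and 0 counts in cTEC KO against 163 and 151 counts in cTEC WT. It did not pass the edgeR test (log2 fold change -5.00, SE 2.48, adjusted p = 0.468); this gene was named after its values were seen.

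Markers of other cells moved beside these values. Medullary markers summed to 3693 to 4026 CPM in cTEC KO, against 3220 to 3628 CPM in cTEC WT, and 13 of 13 tested had a log2 fold change above 0 (median 1.11), none of them called. Aire had 107 and 44.2 CPM in cTEC KO, against 13.7 and 10.6 CPM in cTEC WT. Tuft cell markers summed to 905 to 1368 CPM in cTEC KO, against 433 to 509 CPM in cTEC WT, with 10 of 10 above 0. Fibroblast and pericyte markers summed to 1192 to 1600 CPM in cTEC KO, against 1097 to 1418 CPM in cTEC WT, with 11 of 12 above 0. Dendritic cell and macrophage markers summed to 95.1 to 121 CPM in cTEC KO, against 41.4 to 74.3 CPM in cTEC WT, where Siglech was at 0. B cell markers summed to 12.5 to 13.8 CPM in cTEC KO, against 2.64 to 4.87 CPM in cTEC WT. Thymocyte markers summed to 128 to 187 CPM in cTEC KO, against 94.7 to 138 CPM in cTEC WT, with 10 of 12 above 0 (median 0.57). Endothelial markers summed to 37.3 to 59.3 CPM in cTEC KO, against 28.9 to 103 CPM in cTEC WT, with 1 of 8 above 0 (median -0.86). Cortical markers, Psmb11 included, had 1 of 12 above 0. Bmp3 and Gdf3 stood at 68.8 to 80.1 CPM and 28.8 to 31.1 CPM over the mTEChi libraries of both genotypes. The part of any of these cell types in the cTEC KO values was not tested.

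**Figure D4:**
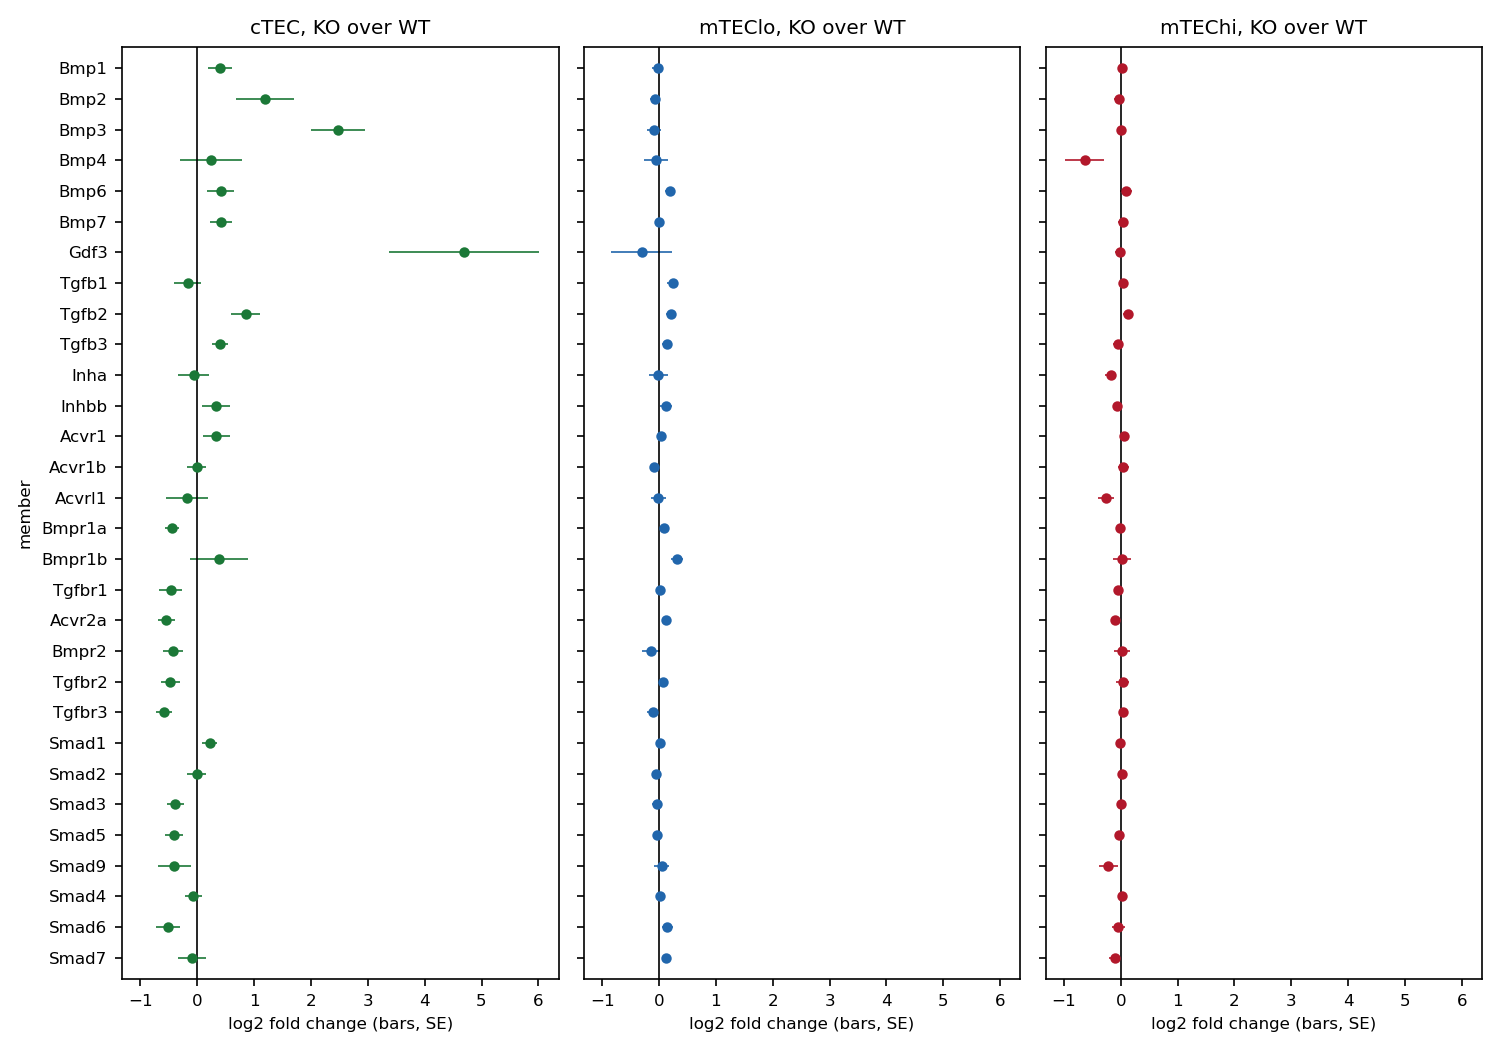
Log2 fold change of KO over WT (x axis, bars give SE) in cTEC, mTEClo and mTEChi for 30 members, those with a mean of at least 5 CPM in a cTEC group and Gdf3. Bmp3 and Gdf3 lie far right of 0 in cTEC, several receptors and Smads lie slightly left, and most mTEClo and mTEChi values sit near 0.

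In mTEClo KO against mTEClo WT, 0 of 39 members passed by edgeR, against 0.00586% of all genes, which was Psmb11 alone. Members with an unadjusted p under 0.05 numbered 4 (12.5% of all genes), and DESeq2 and limma-voom called 0. The smallest p-values were those of Bmpr1b, Tgfb1 and Tgfb2. Bmpr1b, a type I BMP receptor, had 18.9, 22.8 and 19.3 CPM in mTEClo KO, against 15.7, 15.7 and 17.4 CPM in mTEClo WT (log2 fold change 0.31, SE 0.11, adjusted p = 0.307 by edgeR). Tgfb1 and Tgfb2 had log2 fold changes of 0.24 and 0.21. All 3 mTEClo KO libraries lay above all WT libraries for 4 members and below them for 0, where 11.5% and 7.88% of all genes did so (19.4% in either direction).

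In mTEChi KO against mTEChi WT, 0 of 48 members passed by edgeR, against 0.0051% of all genes, again Psmb11 alone. None had an unadjusted p under 0.05 (4.19% of all genes did), and DESeq2 and limma-voom called 0. Gdf2, Acvrl1 and Bmp4 had the smallest p-values, with log2 fold changes of 0.54 (SE 0.28), -0.26 (SE 0.14) and -0.63 (SE 0.34). Bmp4 had 0.454, 0.490 and 0.634 CPM in mTEChi KO, against 0.875, 0.699 and 0.888 CPM in mTEChi WT. Libraries did not overlap for 2 members higher and 2 lower in KO, where 4.53% and 4.41% of all genes did not (8.94% in either direction). The SE of the KO over WT log2 fold change was 0.07 to 0.11 for Bmpr1a, Tgfbr2, Acvr2a, Smad6, Bmp3, Gdf3 and Tgfb2 in mTEChi, and the fold changes of these 7 genes ran from -0.09 to 0.13.

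Differences between the KO effects were tested as well. The KO effect in cTEC minus that in mTEClo was called for 3 of 43 members: Bmp3 (2.56), Gdf3 (4.99) and Acvr2a (-0.68), against 4.68% of all genes. The KO effect in cTEC minus that in mTEChi was called for 4 of 48: Gdf3 (4.69), Bmp3 (2.45), Tgfbr3 (-0.65) and Bmpr1a (-0.44), against 5.35% of all genes. These fits pool the wide spread of cTEC with the narrow one of mTEC, and limma-voom with a variance for each population called 0 in both. Counts also turned on single libraries. For cTEC minus mTEClo there were 19 without cTEC KO 1 (43.2%, against 35.8% of all genes) and 7 without cTEC KO 2 (15.9%, against 16.9% of all genes), but 1 without cTEC WT 2, mTEClo KO 2 or 3, or mTEClo WT 2 or 3 (1.79% to 2.49% of all genes). For cTEC minus mTEChi there were 19 without cTEC KO 1 (39.6%, against 34.2% of all genes) and 10 without cTEC KO 2 (20.8%, against 21.3% of all genes), but 2 without mTEChi KO 2 or 3 or mTEChi WT 2 (2.47% to 2.85% of all genes). The KO effect in mTEChi minus that in mTEClo was called for 0 of 48 members, with 0.0101% of all genes called, 1 member at an unadjusted p under 0.05, and 0 called by DESeq2.

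The remaining genes of the pathway were read from 5 lists. In mTEChi WT against mTEClo WT, 14 of 15 intracellular regulators of Smads were lower and 1, the deubiquitinase gene Usp15, was higher, where 37.9% of all genes were lower and 43% higher. Of 22 target genes, 13 were lower and 8 higher (median log2 fold change -1.5, against 0.06 over all genes). Tgfbi, a TGF-beta-induced matrix gene, had 64.4, 61.6 and 58.0 CPM in mTEChi WT, against 655, 637 and 589 CPM in mTEClo WT (log2 fold change -3.35). Id1 and Id2, BMP-responsive inhibitors of helix-loop-helix factors, had log2 fold changes of -3.80 and -2.47. Id1 stood at 12.2, 12.6 and 14.7 CPM in mTEChi WT, against 191, 188 and 172 CPM in mTEClo WT, so these groups were far apart. Extracellular antagonists were 11 higher and 9 lower of 20 tested, and latency proteins and co-receptors 8 higher and 7 lower of 19, where 80.9% of all genes were called in either direction. Ltbp3, a protein that holds latent TGF-beta in the matrix, had a log2 fold change of -3.44.

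Among the other family ligands and receptors, 3 of 4 were higher in mTEChi WT. These were Nodal (log2 fold change 4.90), myostatin (Mstn, 5.12) and the receptor gene Amhr2 (3.67), named after their values were seen. Lefty2, an antagonist of Nodal, had 56.4, 51.5 and 45.0 CPM in mTEChi KO and 61.3, 43.9 and 54.2 CPM in mTEChi WT, and at most 0.194 CPM in any mTEClo library. Tdgf1, the co-receptor Cripto used by Nodal and GDF3, had 12.2, 10.4 and 10.1 CPM in mTEChi WT, against 0.216, 0.0425 and 0.196 CPM in mTEClo WT (log2 fold change 6.17); this gene too was named after its values were seen. In KO, the lists gave 13 lower and 1 higher of 15 regulators, and 13 lower and 8 higher of 22 targets, against 36.2% lower and 42.2% higher over all genes. Runx1, Lefty2, Id1 and Ltbp3 had the smallest p-values there, with log2 fold changes of -3.10, 8.90, -3.94 and -3.48.

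In cTEC WT against mTEClo WT, 9 of 21 targets were lower and 4 higher, against 24.1% lower and 20.9% higher over all genes. Tgfbi had a log2 fold change of -2.37, the integrin gene Itgb8, which helps to activate latent TGF-beta, -2.02, the pseudoreceptor gene Bambi 1.95 and Cdkn1a -1.15. Against mTEChi WT, cTEC WT had 12 of 22 targets higher and 9 lower and 9 of 15 Smad regulators higher and 1 lower, against 30.8% higher and 43.5% lower over all genes, with Rgma (a BMP co-receptor gene, 4.49), Ltbp3 (4.33), Fstl1 (2.46) and Twsg1 (2.66) leading. In cTEC KO against mTEClo KO, 5 of 21 targets were lower and 1 higher (2.87% and 3.32% of all genes), and Ltbp1, Tgfbi, Pmepa1 and Col1a1 led with 1.5, -2.17, -1.25 and 2.38. Antagonists had 7 higher and 3 lower of 20 in cTEC WT against mTEClo WT and 1 higher of 18 in KO, and latency proteins and co-receptors 7 higher and 6 lower of 19 in WT and 4 higher and 2 lower in KO. In cTEC KO against mTEChi KO, 12 of 22 targets were higher and 6 lower (20.7% and 26% of all genes), with Rgma, Runx1, Ltbp3 and Ltbp4 leading at 4.13, 2.81, 4.14 and 3.74. No gene of the 5 lists passed the threshold in KO against WT in cTEC, mTEClo or mTEChi, by edgeR. The KO effect in cTEC minus that in mTEClo was called for the cell cycle inhibitor genes Cdkn2b (1.78) and Cdkn1a (0.76), for Itgb8 (1.42) and for Hey1 (-0.55), against 4.68% of all genes. Against mTEChi it was called for Cdkn2b (1.72) and for Col1a1 (1.40), a collagen gene that is also among the fibroblast markers, against 5.35% of all genes.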

How the data were processed

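RNA from 16 sorted cell samples was sequenced after TruSeq v2 library preparation, which does not mark strand, per the labels' protocols. The authors deposited raw read counts per gene, and RPKM values (reads scaled to gene length and library size) were deposited beside them. CASAVA 1.8.2, HTSeq 0.5.4p1 and mm10 are named per the submitters' processing notes; the aligner is not given in the sources used here. Reads outside genes made up 13.7% to 30.4% and ambiguous reads 0.541% to 0.887%, and both stayed out of totals. Samples were grouped by the labels' genotype and population. Genes passing filterByExpr were tested with edgeR 4.0.16 (R 4.3.3; TMM factors, quasi-likelihood F test, libraries of the compared groups), with Benjamini-Hochberg adjustment over all tested genes and a threshold of 0.05. SE is the absolute log2 fold change over the square root of F. CPM used TMM factors over all 16 libraries; levels of different genes were compared by RPKM. A floor of 3 counts over a group gave bounds for genes at 0, and counting intervals are 95% intervals that cover counting error only. Members past the threshold were named by smallest p, up to 12 per direction, or the 3 smallest where fewer than 3 passed; of the pathway lists, the 4 with the smallest p per comparison were named. Members and lists were chosen with earlier results of these data known. Alternatives were 1 fit of all 16 libraries, limma 3.58.1 voom with a variance per population, DESeq2 1.42.0, other size factors, no count filter, a replicate block and leaving out each library. The code was tested on simulated data.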

Additional observations from a re-analysis of the deposited data

Results flagged for a closer look

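For 7 results the KO effect differed between cTEC and a medullary population by a test of the difference itself, with edgeR and Benjamini-Hochberg adjustment. The values are log2 KO effects in cTEC minus those in the medullary cells. For Bmp3 the difference was 2.56 against mTEClo (SE 0.356, adjusted p = 0.00519) and 2.45 against mTEChi (SE 0.262, adjusted p = 0.00174). For Gdf3 it was 4.99 against mTEClo (SE 0.946, adjusted p = 0.0184) and 4.69 against mTEChi (SE 0.191, adjusted p = 2.89e-05). For Acvr2a it was -0.678 against mTEClo (SE 0.159, adjusted p = 0.0419). For Tgfbr3 it was -0.647 against mTEChi (SE 0.126, adjusted p = 0.0226), and for Bmpr1a -0.445 against mTEChi (SE 0.107, adjusted p = 0.0499). These fits pool the wide spread of cTEC (biological coefficient of variation 0.673) with the narrow one of mTEClo (0.131) or mTEChi (0.112). The SE and p-values above can thus be too small for the cTEC part. In the cTEC libraries alone, 0 of 40 members passed by edgeR. With a variance for each population, limma-voom gave adjusted p of 0.0999 to 0.473 for all 7. Groups of 2 or 3 libraries were not searched for single outlying samples.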

How the results depend on the processing

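Counts of called members depended on the processing where cTEC KO libraries took part, and the cause was not tested. The share of all genes called also changed between these fits. One fit of all 16 libraries called 18 members in cTEC KO against cTEC WT (0 in the reported fit), 37.5% of those tested against 23.4% of all genes. In cTEC KO against mTEClo KO it called 14 (6 in the reported fit), 29.2% against 29.8% of all genes. For the KO effect in cTEC minus that in mTEClo it called 7 (3), 14.6% against 13.3% of all genes. With mTEChi in place of mTEClo it called 9 (4), 18.8% against 10.7% of all genes. DESeq2 called 4 in cTEC KO against WT (10%, against 5.03% of all genes). In those 2 differences it called 6 and 9 (14% and 18.8%, against 12.5% and 15.3% of all genes). limma-voom with a variance per population called 0 in both differences, where 0.373% and 0.298% of all genes were called. The fit with no count filter called 1 in cTEC KO against WT (2.27%, against 2.06% of all genes). Over all genes, cTEC KO against WT gave 4700 calls of 20126 genes tested in the fit of all libraries and 826 of 16423 with DESeq2. Replicate numbers were not taken to pair the libraries, because no comparison had every correlation of same-numbered deviations over 0.1. In mTEChi KO and mTEClo KO, however, 3 of 3 libraries correlated best with their own number (r of 0.257, 0.0956 and 0.202). Whether those libraries are paired is thus not settled. With the replicate block, 2 members were called in cTEC KO against WT (5%, against 4.37% of all genes). In cTEC KO against mTEChi KO there were 11 (22.9%, against 13% of all genes), where the fit without the block called 33. For the KO effect in cTEC minus that in mTEClo there was 1 (2.33%, against 2.19% of all genes). Leaving out 1 library gave 0 to 15 called members in cTEC KO against WT, 0 to 20 in cTEC KO against mTEClo KO, 24 to 45 in cTEC KO against mTEChi KO, 18 to 31 in cTEC WT against mTEClo WT, 33 to 42 in cTEC WT against mTEChi WT, 40 to 43 in mTEChi KO against mTEClo KO, 42 to 43 in mTEChi WT against mTEClo WT, 1 to 19 and 2 to 19 for the KO effect in cTEC minus that in mTEClo and in mTEChi, and 0 in the other 3 comparisons. Of 1669 values recomputed for named genes, 1568 kept direction and side of the threshold, 87 lost and 13 gained the call, and 1 reversed: for Gdf2, KO effect in mTEChi minus KO effect in mTEClo, the value was -4.67, ran from -5.23 to 0.54 over the fits that leave out 1 library, and was 0.54 without mTEClo KO replicate 1. Depth limits members under 0.0430 CPM, where 3 counts lie.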
